A study of Caenorhabditis elegans with 3 samples.

Results

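The genes described here are 62 protein-coding genes of Caenorhabditis elegans whose deposited symbols begin with fat, elo, acs, lbp, acdh, fasn or pod followed by a number. They are 62 of 20362 protein-coding genes and of 46739 genes in all, and the rule uses names only, not measured values. They comprise 7 fat genes (fatty acid desaturases), 9 elo genes (elongases), 21 acs genes (acyl-CoA synthetases), 9 lbp genes (lipid-binding proteins), 13 acdh genes (acyl-CoA dehydrogenases), the fatty acid synthase gene fasn-1, and pod-1 and pod-2. The last of these encodes acetyl-CoA carboxylase. The product of pod-1 is a coronin-like actin-binding protein and no enzyme of lipid metabolism, so pod-1 matched by name only.

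The samples are 3 libraries of germlines dissected from wild-type N2 worms, which the labels put in a single group with no treatment. Age, sex and number of worms per sample are not given in the labels. The labels number the samples without saying that they came from separate cultures, so the spread between libraries may be technical. With 1 group there is no comparison between conditions and no test. Levels, their spread over libraries and the share of all protein-coding genes that met the same rule are given instead.

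Fatty acids are built from acetyl-CoA. The carboxylase makes malonyl-CoA, and the synthase joins these units into a saturated chain. Elongases then lengthen the chain, and desaturases insert double bonds one after another until polyunsaturated fatty acids are formed. Acyl-CoA synthetases activate free fatty acids, intracellular lipid-binding proteins carry them through the cytosol, and acyl-CoA dehydrogenases carry out the first step of each round of oxidation in mitochondria. In the worm much of this synthesis takes place in the intestine, from which lipid reaches the oocytes with yolk.

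The libraries held 14523486, 15566299 and 16656171 counts, and 3 counts, the limit that a count of 0 allows, stood for 0.207, 0.193 and 0.18 CPM (read counts scaled to a library total of 1e+06). Such limits cover counting error only. All 12 markers of germ cells and oocytes had at least 1 CPM in every library, with sums of 17341, 20676 and 20550 CPM. Of the 15 intestinal markers, 12 had at least 1 CPM in every library, among them asp-1 (46.6, 23.1 and 8.89 CPM) and act-5 (12.3, 6.75 and 10.8 CPM). The markers elt-2 and ges-1 lay between 0 and 0.413 CPM in every library, and ifb-2 had 3.3, 0.642 and 2.1 CPM. The 6 vitellogenin genes, which the intestine expresses, summed to 429.2, 2368 and 681.4 CPM in replicates 1, 2 and 3. All 12 sperm markers were highest in replicate 1 and lowest in replicate 2, with sums of 6010, 677.4 and 1878 CPM. All 9 muscle markers and the 8 matched markers of gonadal sheath and spermatheca had at least 1 CPM in every library, with sums of 432.8 to 694.3 and 772 to 787.3 CPM, as did 3 of 9 neuronal and 0 of 3 coelomocyte markers. In bulk samples such as these, fewer cells of a type and less RNA per cell cannot be told apart.

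Of the 62 genes, 47 had at least 1 CPM in every library (75.8%), against 40.2% of all protein-coding genes. At least 10 CPM in every library was found for 26 genes (41.9%, against 26.6%), and at least 100 CPM for 12 (19.4%, against 7.03%). The median of mean log2(CPM + 1) was 3.26 for the 62 genes and 0.66 for all protein-coding genes, a comparison for which no test was made. Among genes with at least 1 CPM in every library, the order of the medians was the opposite, with a median mean CPM of 25.6 for the 47 genes and 32.0 for all such protein-coding genes. Together the genes took 3942, 3835 and 4090 CPM in replicates 1, 2 and 3, so that about 0.396% of the counts fell on them. The 8 genes with the most reads held 67.8% of that sum. Of the 15 genes under the rule, 6 reached 1 CPM in at least 1 library (acs-7, acs-17, acs-21, elo-7, elo-8 and fat-5) and 9 did not (fat-7, lbp-7, lbp-8, elo-9, acs-3, acs-9, acs-16, acdh-2 and acdh-6). The only gene without a count in any library was acdh-6, against 22.9% of protein-coding genes.

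**Figure D1:**
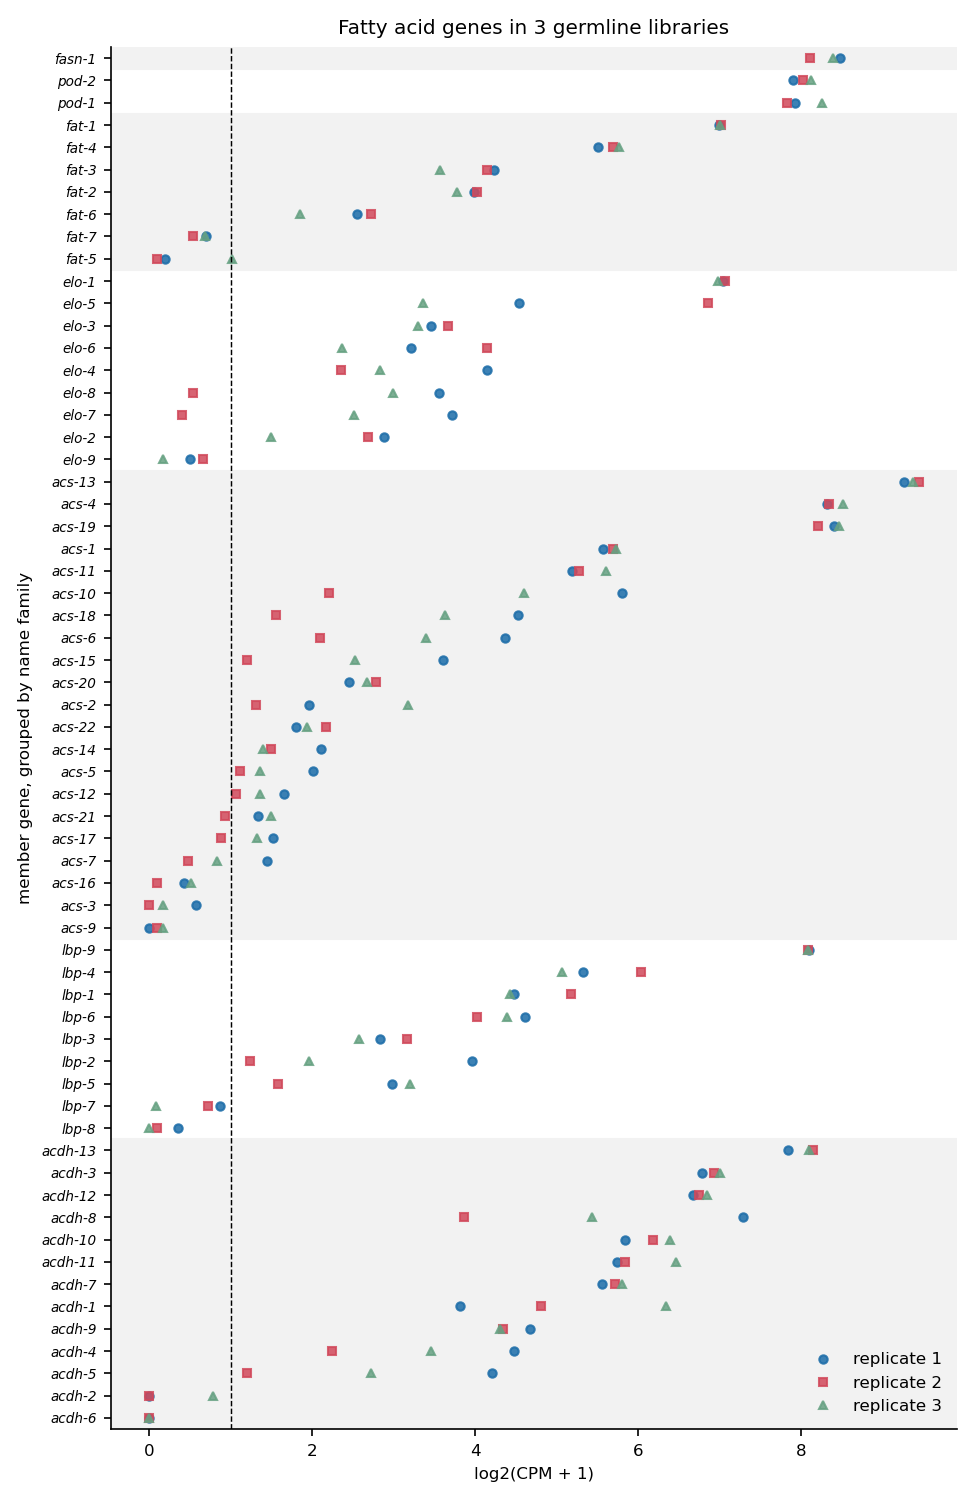
Each row is 1 of the 62 genes, grouped by name family, and the horizontal axis is log2(CPM + 1), with a symbol for each of the 3 libraries and a dashed line at 1 CPM. Genes such as lbp-9, fat-1 and elo-1 have 3 overlapping symbols, whereas acdh-8, elo-5 and acs-10 spread widely between libraries.

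The genes that start synthesis were among the most abundant by reads, though not per kilobase of exon, and were steady across libraries. The synthase gene fasn-1 (WBGene00009342, chromosome I, 8975366 to 8986540) had 353.6, 274.6 and 333.8 CPM in replicates 1, 2 and 3, or 320.7 ± 41.1 CPM (SD, n = 3). The carboxylase gene pod-2 (WBGene00004076, chromosome II, 1136785 to 1152705) had 237.2, 259.2 and 276.4 CPM, or 257.6 ± 19.6. Both are long genes, with 8451 and 6855 bases of merged exons, so their levels were also taken per kilobase of exon. Ranks by reads, sums and medians of CPM given here are not corrected for gene length. By reads fasn-1 and pod-2 ranked 4 and 7 among the genes described here, but per kilobase they ranked 16 and 18. Per kilobase they had 37.9 ± 4.87 and 37.6 ± 2.86 CPM. Their library ranges overlapped, and the ratio of pod-2 to fasn-1 was 0.827, 1.16 and 1.02 in the 3 libraries. The coronin gene pod-1 had 241.7, 226.1 and 303.5 CPM, with replicate 3 the highest.

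Genes that supply the precursor were present too. All 10 genes of the list for acetyl-CoA and malonyl-CoA supply had at least 1 CPM in every library, and 6 of them at least 100 CPM. Of all protein-coding genes, 40.2% and 7.03% had these levels. The median of mean log2(CPM + 1) was 7.39, against 0.66 for all protein-coding genes. By reads the highest were the citrate synthase gene cts-1 (677.6 ± 117.8 CPM), the ATP citrate lyase gene acly-2 (437.7 ± 38.5 CPM) and the pyruvate dehydrogenase gene pdha-1 (359.4 ± 31.3 CPM). The lowest was mlcd-1, whose product breaks down malonyl-CoA, at 37.5 ± 2.87 CPM.

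The desaturase genes covered a wide range. The genes for the enzymes that insert the first double bond were at the bottom, and the omega-3 desaturase gene fat-1 was at the top. For fat-1 (WBGene00001393, chromosome IV, 13315644 to 13318811) the libraries gave 126.1, 127.8 and 127.3 CPM, a ratio of 1.01 between the highest and the lowest. The gene fat-4, whose product acts late in the polyunsaturated series, had 44.3, 50.7 and 53.3 CPM. Those of fat-3, which acts earlier in that series, were 17.7, 16.6 and 10.9 CPM. The gene fat-2, whose product turns oleic into linoleic acid and so opens the polyunsaturated series, had 14.7, 15.2 and 12.7 CPM. Each of these genes had at least 10 CPM in every library.

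The first double bond is set by FAT-5, which acts on palmitic acid, and by FAT-6 and FAT-7, which act on stearic acid. Of these, fat-6 (WBGene00001398, chromosome IV, 11913692 to 11915687) was the only one to pass 1 CPM in every library, at 4.82, 5.59 and 2.58 CPM. The libraries gave fat-7 0.62, 0.45 and 0.6 CPM, from 9, 7 and 10 reads. For fat-5 they held 2, 1 and 17 reads, or 0.138, 0.064 and 1.02 CPM. Per kilobase, fat-6 exceeded fat-7 by 7.51, 12 and 4.15 times in replicates 1, 2 and 3. FAT-6 and FAT-7 are closely similar in sequence. How reads that match both genes were counted is not stated in the labels, so the split between them is uncertain.

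Per kilobase, the order of the desaturase genes was fat-1 (89.7 ± 0.625), fat-4 (32.1 ± 2.98), fat-2 (11.3 ± 1.05), fat-3 (10.1 ± 2.46), fat-6 (3.71 ± 1.34), fat-7 (0.494 ± 0.0827) and fat-5 (0.369 ± 0.482). The library ranges of fat-2 and fat-3 overlapped, as did those of fat-7 and fat-5, so these neighbours did not differ beyond their spread. In every library fat-1 was 7.44 to 8.87 times as high as fat-2, and fat-4 was 2.43 to 4.75 times as high as fat-3. The summed level of the 7 genes was 208.4, 216.4 and 208.4 CPM, of which fat-1 made up 60.2%.

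**Figure D2:**
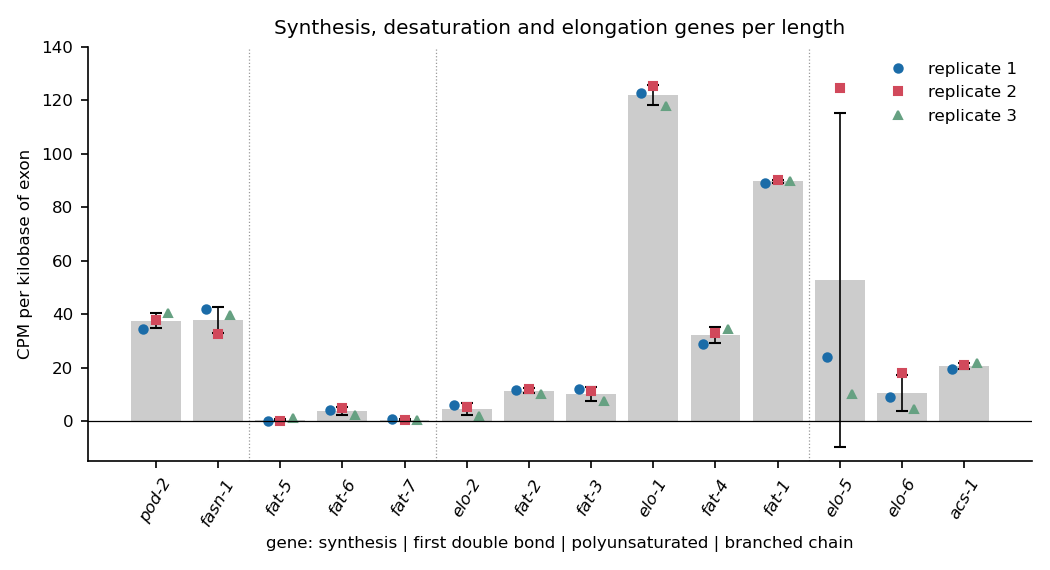
The vertical axis is CPM per kilobase of merged exon for genes of synthesis, the first double bond, the polyunsaturated series and branched-chain fatty acids, with grey bars for the mean of 3 libraries, error bars for the SD and a symbol for each library. The bars of fat-5, fat-6 and fat-7 lie near 0, those of elo-1 (121.96) and fat-1 (89.7) are the tallest, and elo-5 is high in replicate 2 alone.

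By mean CPM, elongase genes fell into 1 abundant gene and 8 lower ones, several of which differed between libraries. In replicate 2 alone, elo-5 was close to elo-1 per kilobase (124.6 and 125.3 CPM). The elongase gene elo-1 (WBGene00001239, chromosome IV, 9526366 to 9528336), whose product lengthens polyunsaturated chains between the FAT-3 and FAT-4 steps, had 130.3, 132.9 and 124.9 CPM. Per kilobase it had 121.96 ± 3.84 CPM, and its range overlapped that of acs-4. The gene elo-2, whose product lengthens palmitic acid, had 6.33, 5.4 and 1.8 CPM, with replicate 3 the lowest. Per kilobase elo-1 was at least 20.1 times as high as elo-2 in each library.

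The elongases ELO-5 and ELO-6 make monomethyl branched-chain fatty acids, which the worm needs for growth. The level of elo-5 (WBGene00001243, chromosome IV, 5374616 to 5377117) was 22.2, 114.9 and 9.25 CPM in replicates 1, 2 and 3, and that of elo-6 was 8.26, 16.6 and 4.14 CPM. Both were highest in replicate 2 and lowest in replicate 3, the order of 4 of the 15 intestinal markers (vit-1, vit-3, mtl-2 and lys-1) and of 4 of the 8 matched markers of gonadal sheath and spermatheca. A further 5 intestinal markers, vit-2, vit-4, vit-5, vit-6 and pept-1, were highest in replicate 2 and lowest in replicate 1. The part of these tissues in the elo-5 and elo-6 levels was not tested. Without replicate 2 the mean of elo-5 was 15.7 CPM in place of 48.8. On the opposite strand, 162 of its 922 exon bases overlap the gene F41H10.3, which had 93.2, 76.8 and 108.6 CPM and was thus lowest in replicate 2. Whether counting used strand is not stated in the labels.

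The synthetase gene acs-1, which acts on the same branched-chain acids, was steady at 46.4, 50.6 and 51.8 CPM. The genes listed as partners in elongation, branched-chain precursor supply and ceramide synthesis had at least 1 CPM in every library in 12 of 14 cases. Their median of mean log2(CPM + 1) was 5.85. For all protein-coding genes the share was 40.2% and the median 0.66. Highest by reads among the 14 listed were dld-1 (151.5 ± 28.7 CPM), a subunit shared by dehydrogenase complexes, the elongation partner gene let-767 (110.5 ± 5.06 CPM) and bckd-1B (100.9 ± 8.42 CPM), a subunit of the branched-chain keto acid dehydrogenase. The lowest was the ceramide synthase gene lagr-1 at 0.186 CPM.

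The other elongase genes have less well known substrates. The genes elo-3 (9.91, 11.7 and 8.83 CPM), elo-4 (16.6, 4.11 and 6.12 CPM), elo-7 (12.1, 0.321 and 4.68 CPM) and elo-8 (10.7, 0.45 and 6.96 CPM) had means between 5.71 and 10.1 CPM, and elo-9 stayed under 1 CPM in every library, with 2 to 9 reads. Of these, elo-3 alone was steady, and elo-4, elo-7 and elo-8 were highest in replicate 1 and lowest in replicate 2. The sum over the elo family was 216.9, 287 and 166.8 CPM, a ratio of 1.72 between libraries, the largest of the 7 name families.

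Acyl-CoA synthetase genes held the largest summed level of the 7 families, 1477, 1424 and 1550 CPM, most of it in 3 genes. The highest by reads of all 62 genes was acs-13 (WBGene00022037, chromosome I, 511044 to 519646), with 609.2, 691.8 and 661.7 CPM, or 654.2 ± 41.8. Only lbp-9 was higher per kilobase. Next in the family came acs-4 (WBGene00018152, chromosome III, 7167838 to 7170990), with 317.5, 322.2 and 364.1 CPM. The third, acs-19 (WBGene00007969, chromosome III, 3864489 to 3867098), a homologue of the synthetase that makes acetyl-CoA from acetate, had 336.7, 294.2 and 350.4 CPM. Per kilobase acs-13 had 245.8 ± 15.7, acs-19 140.1 ± 12.6 and acs-4 118.1 ± 9.06 CPM. The ranges of acs-13 lay above the other two in every library, and acs-19 was higher than acs-4 within each library, with ratios of acs-4 to acs-19 between 0.777 and 0.902.

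The remaining 18 synthetase genes were lower. After acs-1, acs-11 had 35.3, 37.6 and 47.6 CPM, and acs-10, acs-18, acs-6 and acs-15 had means between 5.7 and 27.2 CPM and differed strongly between libraries. The genes acs-20 and acs-22, homologues of fatty acid transport proteins, had 4.48, 5.85 and 5.34 CPM and 2.48, 3.47 and 2.82 CPM. The fasting-responsive gene acs-2, whose product acts in mitochondrial oxidation, had 2.89, 1.48 and 8.05 CPM, with replicate 3 the highest. A further 6 genes (acs-14, acs-5, acs-12, acs-21, acs-17 and acs-7) had means between 0.962 and 2.24 CPM. The genes acs-16, acs-3 and acs-9 had at most 7 reads in any library, and acs-9 was the lowest of the family with 0, 1 and 2 reads.

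Among the lipid-binding protein genes, lbp-9 stood alone. Its libraries gave 272.7, 268.8 and 268.5 CPM, a ratio of 1.02. On chromosome V (2068449 to 2069142) it has 564 bases of merged exons, and per kilobase it was the highest of the 62 genes at 478.7 ± 4.13 CPM. In every library it was 1.83 to 2.11 times as high as acs-13, the next in that order. It made up 71.2% of the summed lbp level, which was 385, 395.6 and 357.5 CPM.

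The other lbp genes had 45.3 CPM or less on average. For lbp-4 the libraries gave 38.9, 64.6 and 32.4 CPM. The neighbouring X-linked genes lbp-1, lbp-2 and lbp-3, which lie in the same orientation within 3257372 to 3261470 and whose products are predicted to be secreted, did not share an order of libraries. Replicate 2 was the highest for lbp-1 (21.3, 35.1 and 20.5 CPM) and for lbp-3 (6.13, 7.9 and 4.92 CPM). It was the lowest for lbp-2 (14.6, 1.35 and 2.88 CPM). The gene lbp-6 had 23.4, 15.2 and 20 CPM and the nearby lbp-5 had 6.89, 1.99 and 8.17 CPM. For lbp-7 and lbp-8, the latter known for a lysosomal lipid signal that extends lifespan, at most 12 reads were counted in a library.

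Acyl-CoA dehydrogenase genes included several abundant and steady members. The highest by reads was acdh-13 (WBGene00001566, chromosome IV, 8496485 to 8498823), with 227.8, 281.6 and 272.5 CPM. The libraries gave acdh-3 108.5, 121 and 127.4 CPM and acdh-12 100.5, 105.9 and 113.3 CPM. Per kilobase acdh-13 (129.7 ± 14.3 CPM) was 1.57 to 1.74 times as high as acdh-3 in the 3 libraries. The genes acdh-10 (55.8, 71.7 and 82.7 CPM) and acdh-7 (45.9, 51.6 and 54.6 CPM) lie 114 bases apart on the X chromosome in the same orientation. The gene acdh-11, whose product is known to act on fat-7 expression in heat adaptation, had 52.5, 56.3 and 86.8 CPM. The level of acdh-9 was 20.8 ± 3.19 CPM.

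The remaining acdh genes differed between libraries or were near 0. For acdh-8 (WBGene00019406, chromosome II, 5794495 to 5796185) the values were 155.3, 13.6 and 42.2 CPM, and without replicate 1 the mean was 27.9 CPM in place of 70.3. The genes acdh-4 (21.1, 3.73 and 9.97 CPM) and acdh-5 (17.4, 1.28 and 5.58 CPM) were ordered the same way. A close paralogue of acdh-1, acdh-2, had 0, 0 and 12 reads, a split that is uncertain for the same reason as that of fat-6 and fat-7, and acdh-6 had none.

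The gene acdh-1 (WBGene00016943, chromosome I, 6497436 to 6499560) encodes the first enzyme of the propionate shunt, a route that worms use to break down propionate when vitamin B12 is scarce. It had 13, 26.9 and 79.7 CPM in replicates 1, 2 and 3, so that replicate 3 was 6.12 times as high as replicate 1. Another enzyme of the shunt, hphd-1, had the same order with 29, 42.7 and 85.1 CPM. The other shunt genes varied less, with ech-6 at 73.9, 74.7 and 95.8 CPM, hach-1 at 35.3, 39.3 and 42.5 CPM and alh-8 at 116.2, 93.9 and 141 CPM. The regulator nhr-68 had 0.275, 1.61 and 1.32 CPM, and nhr-10 had 8.74, 13.9 and 10.1 CPM. Of all 13 genes of the shunt and the B12-dependent route, 12 had at least 1 CPM in every library, against 40.2% of all protein-coding genes. They were led by reads by the methionine synthase gene metr-1 (186.4 ± 15.3 CPM), the propionyl-CoA carboxylase gene pccb-1 (157.4 ± 25.4 CPM) and alh-8. Without replicate 3 the mean of acdh-1 was 19.9 CPM in place of 39.8.

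In the order of all 62 genes per kilobase, lbp-9, acs-13 and acs-19 led, followed by acdh-13, elo-1, acs-4, fat-1 and acdh-3. Of the 61 pairs of neighbours in this order, 55 had overlapping library ranges and so did not differ beyond their spread. The steps without overlap included those from lbp-9 to acs-13, from acs-13 to acs-19, from acs-4 to fat-1 and from fat-1 to acdh-3. The smallest two-sided p that an exact permutation test of 3 values against 3 can give is 0.1, so no such test was made.

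Several of the less abundant genes differed between libraries. Of the 47 genes with at least 1 CPM in every library, 25 (53.2%) had a highest library at least 1.5 times the lowest, against 30.05% of all such genes. A ratio of at least 2 was found for 18 (38.3%), against 15.5%. All 12 genes with at least 100 CPM in every library had ratios under 1.5, with pod-1 the highest at 1.34. The share of all protein-coding genes of that level with such ratios was not taken, so this count has no background beside it. Of the 26 genes with at least 10 CPM in every library, 7 passed 1.5 (26.9%, against 12.9% of all such genes), namely acdh-8, acdh-1, lbp-4, lbp-1, acdh-11, fat-3 and lbp-6. Without replicate 1, 2 or 3 in turn, the share was 42.6%, 41.2% and 42.6% for these genes, against 21.9%, 23.2% and 18.5% of all genes.

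**Figure D3:**
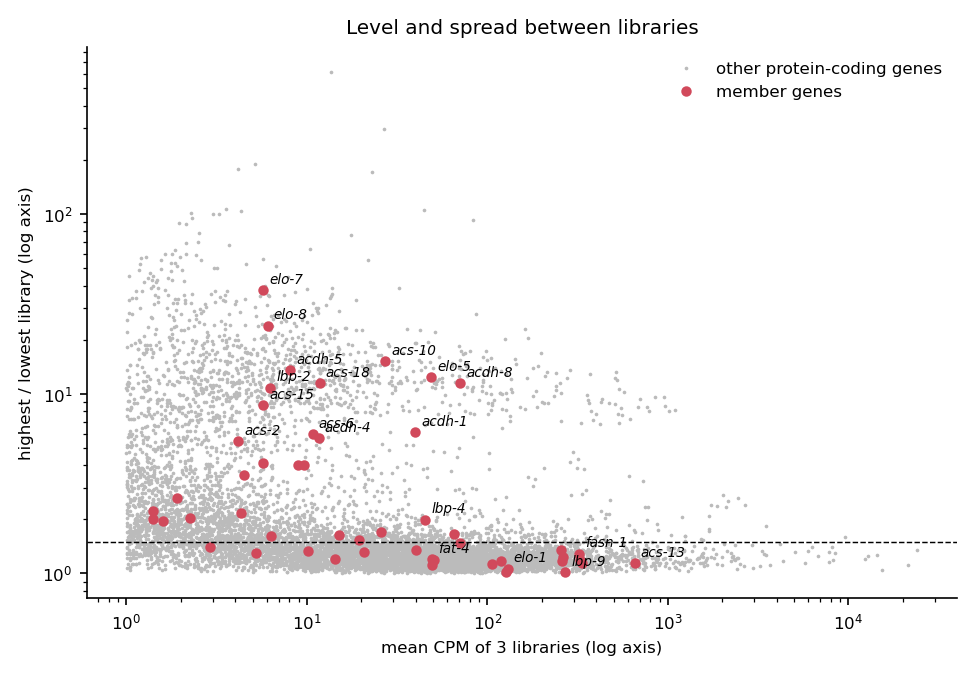
The horizontal axis is the mean CPM and the vertical axis the ratio of the highest to the lowest library, both on log axes, with grey points for other protein-coding genes of at least 1 CPM on average and red points for the fatty acid genes, genes with a count of 0 in any library left out. The dashed line marks a ratio of 1.5, and elo-7 reaches the highest ratio among the red points at 37.7.

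Over the 51 genes with a mean of at least 1 CPM, 13 were highest in replicate 1 and lowest in replicate 2 with a ratio of at least 2 (25.5%, against 13.8% of all protein-coding genes of that level). They were acdh-8, acs-10, acs-18, acdh-4, acs-6, elo-4, acdh-5, lbp-2, elo-8, elo-7, acs-15, acs-5 and acs-17. In acs-10 the libraries gave 54.8, 3.6 and 23.2 CPM, a ratio of 15.2. The values of acs-18 were 22, 1.93 and 11.3 CPM, those of acs-15 were 11.1, 1.28 and 4.74 CPM and those of acs-6 were 19.5, 3.28 and 9.49 CPM. This is also the order of all 12 sperm markers, whose median ratio was 8.27, among them ssq-1 (907.6, 100.7 and 274.7 CPM) and gsp-3 (353.4, 17.4 and 135.7 CPM). The cuticle collagen genes col-19 (102.7, 8.8 and 16.9 CPM) and col-140 (423.7, 30.4 and 84.7 CPM) had that order as well, as did nhr-23 among the 10 markers of hypodermis and cuticle. Of the same list, 5 were highest in replicate 3, among them the collagen genes sqt-3 (0.207, 0.321 and 4.74 CPM) and dpy-13 (0.138, 0 and 9.07 CPM). The sums over the list were 634.5, 139 and 229.9 CPM, 4 had at least 1 CPM in every library, and dpy-7, bli-1, rol-6 and col-10 lay between 0 and 0.36 CPM. All 9 muscle markers were highest in replicate 1 and 5 of them lowest in replicate 2, with sums of 694.3, 444.7 and 432.8 CPM. The part of sperm, cuticle or muscle transcripts in the levels of the 13 genes was not tested.

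Replicate 2 was the highest, with a ratio of at least 2, for elo-5, elo-6 and fat-6 (5.88%, against 4.95%). Of the 15 intestinal markers, 9 were highest in replicate 2, and their sums were 513, 2459 and 723 CPM. The part of intestinal transcripts was not tested. Of these 15 markers, 12 had at least 1 CPM in every library, while elt-2, the defining regulator of the intestine, had 0.138, 0 and 0.18 CPM. For acdh-1, lbp-5, acs-2 and acs-21, replicate 3 was the highest with such a ratio (7.84%, against 4.53%), and for elo-2 and acs-14 replicate 1 was the highest and replicate 3 the lowest (3.92%, against 1.81%). These shares rest on 2 to 4 genes each.

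**Figure D4:**
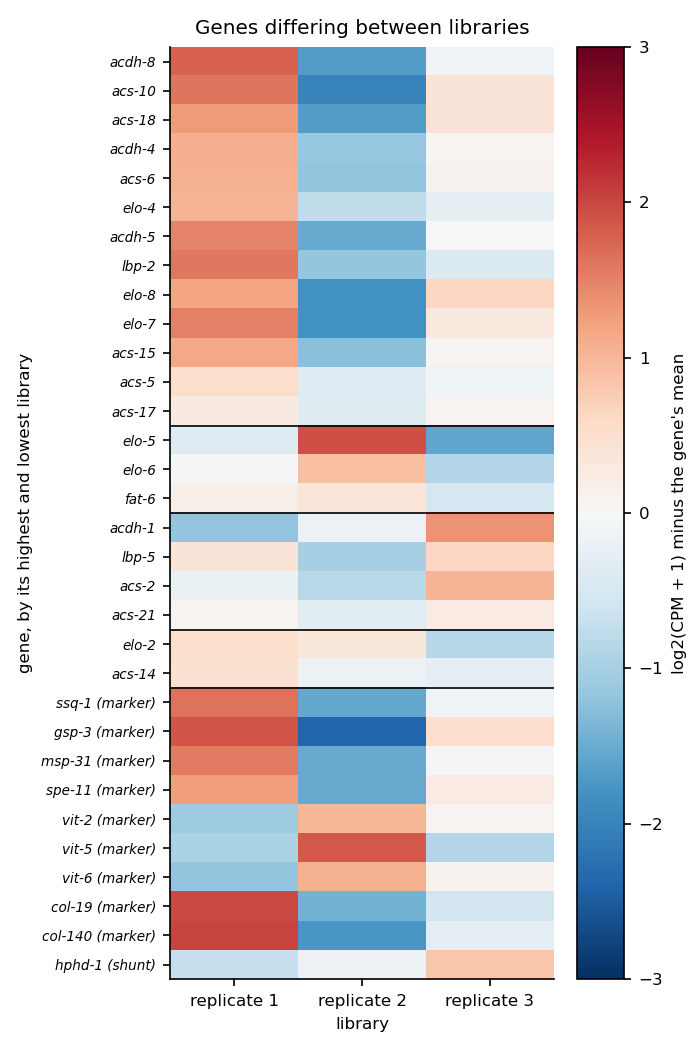
Rows are the 22 fatty acid genes named in the 4 orders of libraries, followed by sperm (ssq-1, gsp-3, msp-31, spe-11), vitellogenin (vit-2, vit-5, vit-6) and collagen (col-19, col-140) markers and the shunt gene hphd-1, and columns are the 3 libraries. Colour gives log2(CPM + 1) minus the gene's mean over the libraries, red for higher and blue for lower, and the 13 genes at the top are red in replicate 1 and blue in replicate 2, as the sperm rows and those of the 2 collagen genes shown are.

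Genes of oxidation were counted apart for mitochondria and peroxisomes, on CPM not corrected for gene length. Of 20 genes listed for mitochondrial oxidation, 15 had at least 1 CPM in every library and 12 at least 10 CPM, with a median of mean log2(CPM + 1) of 5.35. By reads the highest were mecr-1 (259.3 ± 34.3 CPM), whose product is known from mitochondrial fatty acid synthesis rather than oxidation, ech-1.2 (237.1 ± 54.2 CPM), which encodes a subunit of the trifunctional protein, and the carnitine palmitoyltransferase gene cpt-1 (159.3, 146.8 and 129.4 CPM). The lowest were cpt-3 and cpt-4, with 0.089 CPM each. Of 17 genes listed for peroxisomal oxidation, 7 had at least 1 CPM in every library and 1 had at least 10 CPM, with a median of 1.23. That gene, prx-10 (27.8 ± 3.86 CPM), acts in peroxisome assembly. It was followed by the hydratase gene maoc-1 (4.58 ± 1.54 CPM) and the transporter gene pmp-2 (2.86 ± 1.3 CPM), and pmp-1 was the lowest at 0.374 CPM. The thiolase gene daf-22, which also shapes ascaroside pheromones, had 3.86, 1.54 and 2.52 CPM. For all protein-coding genes the median was 0.66, 40.2% had at least 1 CPM in every library and 26.6% had at least 10 CPM. At 1 CPM the peroxisomal share was thus close to that of all protein-coding genes.

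Lists for regulation, membranes and storage were mostly present. Of 13 transcriptional regulators of lipid genes, 10 had at least 1 CPM in every library, with a median of mean log2(CPM + 1) of 4.19. For all protein-coding genes the share was 40.2% and the median 0.66. The Mediator subunit gene mdt-15 had 68.4, 64.9 and 70.2 CPM, nhr-49, which acts with it on desaturase genes, had 62.1, 57.1 and 68.8 CPM, and lpd-2 had 60.2 ± 4.44 CPM. The sterol response element binding protein gene sbp-1 had 10.6, 9.31 and 11.8 CPM. The gene nhr-80, whose product is known to act on fat-6 and fat-7, had 1.1, 0.707 and 1.02 CPM, and nhr-25 was the lowest at 0.19 CPM.

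All 14 genes for phosphatidylcholine synthesis and its sensing had at least 1 CPM in every library (median of mean log2(CPM + 1) 4.59). They were led by reads by paqr-1 (157.9 ± 3.71 CPM), the S-adenosylmethionine synthetase gene sams-3 (109.2 ± 30.1 CPM) and iglr-2 (106.6 ± 4.92 CPM), which acts with PAQR-2 in membrane fluidity, and cept-1 was the lowest at 1.82 CPM. Of 21 genes for triglyceride synthesis and storage, 17 had at least 1 CPM in every library (median 4.80). Beside both lists, 40.2% of all protein-coding genes had that level in every library, with a median of 0.66. The lipid droplet gene plin-1 led by reads at 256.6, 266.8 and 274.9 CPM, followed by the lipase partner gene lid-1 (106.5 ± 13.2 CPM) and the lipin gene lpin-1 (97.2 ± 13.1 CPM). No count was found for mboa-1 and lipl-4, which allows at most 0.207 CPM in the shallowest library. Of the listed genes named for diacylglycerol acyltransferases, dgtr-1 had 55, 63.5 and 59.6 CPM and dgat-2 had 0.138, 0.321 and 0.24 CPM. The gene mboa-2 of the same list had 44.6, 62.5 and 57.6 CPM.

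**Figure D5:**
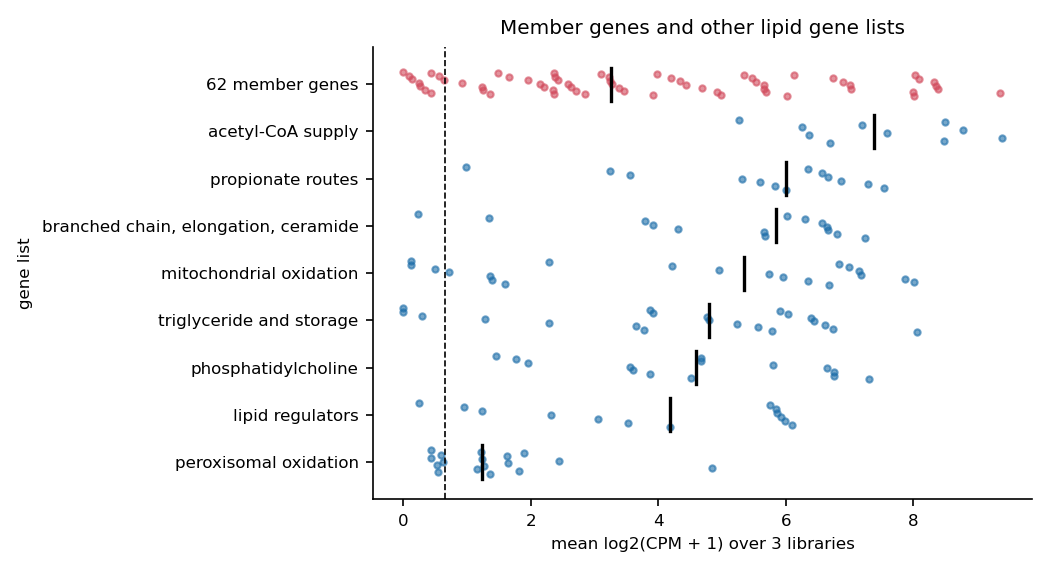
Each point is a gene and the horizontal axis is its mean log2(CPM + 1) over 3 libraries, with a row for the 62 fatty acid genes and for each of 8 other lists, a thick black line at the median of a row and a dashed line at the median of all protein-coding genes (0.66). The acetyl-CoA supply list has the highest median (7.39) and the peroxisomal list the lowest (1.23).

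Several of the genes lie close together on WBcel235, and nearby genes did not always share a level or an order of libraries. On chromosome IV, fat-4 and fat-3 lie 796 bases apart in the same orientation with no other protein-coding gene between them, as do fat-1 and fat-2 at 5061 bases. In both pairs the upstream gene was the higher per kilobase in every library. The genes elo-1 and elo-7 lie 1610 bases apart, with 1 other protein-coding gene starting between their start positions. The first was steady and the second differed 37.7 times between libraries, from 5 reads in replicate 2 and 176 in replicate 1. In contrast, elo-5 and elo-6, 9511 bases apart with 3 other protein-coding genes starting between their start positions, had the same order of libraries. Of the 8 X-linked genes, 6 had at least 1 CPM in every library, beside 32.8% of X-linked protein-coding genes, and of the 13 on chromosome V, 7 did, beside 23.7%. Exon bases shared with another gene were found for 18 of the 62 genes, and for 4 of them (acs-9, elo-4, elo-5 and acdh-3) these made up over 10% of their exons. The share of all protein-coding genes with such bases was not taken, so these counts have no background beside them. For acdh-3, 92 of 1505 bases lie opposite knl-2, which had 460.8 CPM.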

How the data were processed

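RNA of 3 dissected germline samples was measured, with libraries made by a SMART-Seq v4 ultra low input kit per the labels' protocols. The authors deposited raw read counts per gene, with reads aligned and counted with STAR and featureCounts on WBcel235, per the submitters' processing notes. Versions, annotation release, strand setting and the treatment of multiply matching reads are not stated there.

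CPM were computed on each library's total of all rows, and means ± SD are over n = 3 libraries. Levels were taken per kilobase of merged exons from the Ensembl 115 annotation of WBcel235. The log scale was log2(CPM + 1). Normalization factors for the alternatives came from edgeR 4.0.16 and DESeq2 1.42.0 in R 4.3.3, and the rest used Python 3.11.15, numpy 2.4.6, pandas 2.3.3 and scipy 1.17.1. The libraries differed by more than sampling noise, with a chi-square per degree of freedom of at least 65.5 between any pair. The steps for CPM, the ratio between libraries, the highest or lowest library and the 1 CPM rule were tested on simulated data. In these, changes were put into replicate 2 only. Levels per kilobase, sums, gene overlaps and the matching of lists were not tested in this way.

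The genes, lists, markers and rules were chosen with earlier results of these data known. Values by library were due for the 20 genes of highest mean CPM and the 8 of largest ratio, with the 3 highest and the lowest of each list, and further genes were named for their role. Marker lists covered germ cells and oocytes, sperm, intestine, hypodermis and cuticle, muscle, gonadal sheath and spermatheca (where tnc-1 was not matched), neurons and coelomocytes. Alternatives were other scalings, detection minima, gene lengths and leaving out each library. No sequences are shown, because none were used here.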

Additional observations from a re-analysis of the deposited data

How the results depend on the processing

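With 3 libraries of 1 group, SDs are imprecise and levels near 1 CPM rest on 14.5 to 16.7 reads. Leaving out each library in turn gave 47 to 51 of the 62 genes at 1 CPM or more throughout, 26 to 28 at 10 CPM or more, 12 at 100 CPM or more, 20 to 21 with a ratio of at least 1.5, a median log2(CPM + 1) of 2.85 to 3.68, a sum of 3888 to 4016 CPM and a median of 6.95 to 10.7 CPM per kilobase. The pathway lists had 98 to 101 distinct genes at that first level in place of 96. Without replicates 1, 2 and 3 in turn, 47, 51 and 47 of the 62 genes had 1 CPM or more, beside 41.1%, 43.8% and 41.2% of all protein-coding genes.

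The sum over the 62 genes was 4271 CPM when scaled to the protein-coding total, against 3956, which follows from the smaller total. When a level of 10 CPM was required throughout, 7 of 26 genes (26.9%, against 12.9% of all such genes) in place of 25 of 47 had a ratio of at least 1.5. Of the 21 genes this removed, 18 had such a ratio (85.7%, against 63.6% of all genes of at least 1 but not of at least 10 CPM in every library). Among the orders of libraries with a ratio of at least 2, that with replicate 1 highest and replicate 2 lowest held 13 to 14 genes under the other scalings. Under each of these scalings, replicate 2 was highest for 4 genes in place of 3, and replicate 3 for 3 in place of 4. Single genes depended on 1 library. Without replicate 1 the mean was 27.9 CPM for acdh-8 (70.3 with it), 13.4 for acs-10 (27.2) and 3.43 for acdh-5 (8.1). No paired analysis was possible because the labels give 1 group.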
